A study of Mus musculus with 16 samples.

Results

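The 37 genes described here encode the machinery that copies DNA in S phase, from the proteins that license replication origins to the enzymes that supply nucleotides. They were taken by name as known replication genes, but with earlier results of these data known, so the choice was not independent of the data. Each matched 1 of the 49585 gene identifiers in the count tables. The sequenced RNA came from bones of C57BL/6 mice aged 8 to 12 weeks, and the series describes the cells as neutrophils isolated by flow cytometry. The design held 2 mouse lines with 4 libraries in each of 4 groups. P2KO libraries were labelled Vav:cre-PHD2 f/f and were set against the wild-type group P2WT. P2H2KO libraries were labelled Vav:cre-PHD2/HIF2 ff/ff and were set against the wild-type group P2H2WT. PHD2 is an oxygen-dependent enzyme that marks hypoxia-inducible factors, HIF2 among them, for degradation. Vav:cre is active throughout the blood-forming system, so the labelled deletion is not limited to neutrophils. The controls are labelled only as wild type, and whether they carried the floxed alleles or the Cre is not said. The labels do not say whether each library came from another mouse, so p-values measure the spread between these libraries, which may be technical in part.

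Total counts per library ranged from 23450746 to 28601284, and no pair of libraries held identical counts. The summed counts did not check the genotype labels. Egln1, which encodes PHD2, averaged 49.5 ± 6.39 CPM (counts scaled to library size; SD, n = 4) for P2KO against 48.6 ± 2.21 CPM for P2WT. In the other line it averaged 53.1 ± 4.39 CPM for P2H2KO against 52.2 ± 2.97 CPM for P2H2WT. Epas1, which encodes the HIF2 alpha subunit, averaged 5.65 ± 2.17 CPM for P2H2KO against 3.55 ± 1.02 CPM for P2H2WT. A count covers all exons of a gene, so the loss of an exon would not have to show, and every direction given below rests on the labels.

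Replication begins when the origin recognition complex, with Cdc6 and Cdt1, loads the ring-shaped MCM2-7 helicase onto DNA in G1. Cdc45 and the GINS complex then activate the helicase, polymerase alpha with its primase starts each new strand, and polymerases delta and epsilon extend it on the sliding clamp PCNA, which replication factor C loads. Many of these genes are driven by E2F transcription factors at the entry into S phase. In bone marrow the dividing neutrophil precursors express them and mature neutrophils, which no longer divide, largely do not. Erythroid precursors also divide rapidly.

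Promoter sequence is shown because the genes varied together between libraries, as described below. RefSeq promoter windows (GRCm38.p6, 250 bases before to 50 after the start) were matched for 30 of the 37 genes. An E2F-type motif, searched as TTTCCCGC, TTTCGCGC, TTTGCCGC or TTTGGCGC on both strands, was found in 12 of the 30 windows (40%). It was found in 2.26% of all 32851 windows of the same length, and in 2.6% of the 27025 genes with a window. The 12 genes were Mcm3, Mcm5, Mcm6, Mcm7, Gins3, Cdc6, Cdt1, Rfc3, Pola1, Pold1, Lig1 and Orc1. The letter forms can overlap on opposite strands, as in Mcm6. A match is a description of the letters and does not show that a factor binds there. The stretches below run 5′ to 3′ on the strand of the gene, end before the start or before any annotated transcribed base, and carry the matches in capitals. They were chosen after values were seen, to show genes with several matches, with 1 match and with none.

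Mcm5 (chr8:75109339-75109508, plus strand): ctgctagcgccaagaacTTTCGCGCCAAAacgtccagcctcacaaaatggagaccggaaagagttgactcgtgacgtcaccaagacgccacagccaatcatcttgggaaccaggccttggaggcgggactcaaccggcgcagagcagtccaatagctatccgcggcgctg
Mcm6 (chr1:128359706-128359875, minus strand): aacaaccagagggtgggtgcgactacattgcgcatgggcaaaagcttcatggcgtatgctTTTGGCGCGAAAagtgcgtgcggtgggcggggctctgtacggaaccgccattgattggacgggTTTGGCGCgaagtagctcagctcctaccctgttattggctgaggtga
Pola1 (chrX:93632156-93632325, minus strand): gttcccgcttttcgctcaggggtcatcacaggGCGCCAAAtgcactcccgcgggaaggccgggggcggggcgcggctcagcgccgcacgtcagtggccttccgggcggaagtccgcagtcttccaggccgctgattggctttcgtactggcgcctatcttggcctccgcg
Mcm2 (chr6:88898781-88898950, minus strand): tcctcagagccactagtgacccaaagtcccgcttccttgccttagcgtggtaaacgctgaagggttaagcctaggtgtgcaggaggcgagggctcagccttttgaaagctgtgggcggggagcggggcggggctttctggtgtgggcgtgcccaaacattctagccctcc
Rfc1 (chr5:65335671-65335809, minus strand): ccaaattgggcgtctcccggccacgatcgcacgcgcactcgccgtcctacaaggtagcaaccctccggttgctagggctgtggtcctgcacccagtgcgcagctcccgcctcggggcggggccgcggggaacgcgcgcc

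Mcm5 held overlapping matches on opposite strands, Mcm6 held 3 matches, Pola1 held 1, and the printed stretches of Mcm2 and Rfc1 held 0. The windows of Mcm2 and Rfc1 held none over their whole length either. Absence says only that these letters are not in the window.

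All 37 genes were readily measured in cells labelled as neutrophils. Their counts ranged from 440 to 24420 per gene and library, and all 37 passed the filter on low counts in every comparison. Levels between genes are given as RPKM, that is CPM per kilobase of the exons of protein-coding transcripts. The length over all annotated exons is far longer in some genes, as in Rrm1 (11012 against 3997 bases) and Mcm2 (6956 against 3371 bases). The order of the genes, and how even the subunits of a complex are, therefore depend on this choice of length. The median gene of the 37 stood at 42.3 RPKM (mean of 16 libraries), against 6.31 RPKM for the median of 14059 genes tested, and all 37 lay above that median. From the lowest, Gins2 at 7.52 RPKM, to the highest, Rrm2 at 339.9 RPKM, the range was 45.2-fold.

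Rrm2, Pcna and Rrm1 had the highest levels of the 37. Rrm2 and Rrm1 encode the small and large subunits of ribonucleotide reductase, which makes deoxyribonucleotides, and stood at 339.9 ± 46.1 and 171 ± 18.1 RPKM (SD over 16 libraries). Pcna followed Rrm2 at 255 ± 30.1 RPKM. The other nucleotide supply genes were lower. Tk1, which encodes thymidine kinase, was at 92.3 ± 10.04 RPKM, and Tyms, which encodes thymidylate synthase, was at 34.5 ± 3.47 RPKM.

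The 6 subunits of the MCM2-7 helicase, which form a ring with 1 copy of each, were close to each other. Their means were 130 ± 15.8 RPKM for Mcm2, 123 ± 10.8 for Mcm3, 88.1 ± 9.83 for Mcm4, 141 ± 11.4 for Mcm5, 114 ± 11.6 for Mcm6 and 143 ± 15.5 for Mcm7. The highest subunit was 1.62-fold above the lowest. Mcm7 and Mcm5 differed by less than their spread over libraries, as did Mcm2 and Mcm3, whereas Mcm4 was the lowest subunit in the mean. Each subunit kept its share of the complex across libraries. Mcm6, for example, took 15.5 ± 0.22% of the summed RPKM of the ring, and the SD of the 6 shares lay between 0.22 and 0.57 percentage points, while the summed RPKM itself varied 1.37-fold between libraries.

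The other complexes ranged from more even to less even than this ring. In replication protein A, which coats single-stranded DNA, Rpa1, Rpa2 and Rpa3 stood at 49.2, 50.8 and 43.7 RPKM, within 1.16-fold. The polymerase alpha and primase genes Pola1, Pola2, Prim1 and Prim2 lay within 1.81-fold, at 27.6, 23.4, 42.3 and 30.0 RPKM. Within GINS the range was 5.68-fold, from 7.52 RPKM for Gins2 and 7.89 for Gins3 to 25.9 for Gins1 and 42.7 for Gins4. The clamp loader subunits Rfc1, Rfc2, Rfc3 and Rfc5 lay between 21.3 and 25.3 RPKM, and Rfc4 stood at 42.9. These levels depend on the annotated length, and in the exons of Gins2 67.3% of bases overlap Gse1 on the opposite strand. For Fen1 that share is 84.2%, shared with Gm10143 and Tmem258. It is 15.1% for Rfc2, 12.7% for Rfc4, 12.6% for Mcm7, 10.8% for Orc1 and 10.7% for Rfc5. The strand setting of the counting is not given in the sources used here, so reads of these genes and their neighbours cannot be told apart. The pseudogene Pcna-ps2 held 45 to 103 counts per library, so it took few of the reads of that family.

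Among the licensing genes Cdt1 was the highest at 71.1 ± 7.03 RPKM, followed by Orc6 at 38.5, Cdc6 at 31.3 and Orc1, the largest subunit of the origin recognition complex, at 17.8. The helicase activation genes Cdc45 and Mcm10 stood at 35.9 and 15.97 RPKM. Pold1 and Pole, the catalytic subunits of the lagging and leading strand polymerases, were at 38.1 ± 3.62 and 12.3 ± 1.47 RPKM. Fen1 and Lig1, which process and join Okazaki fragments, were at 94.5 and 79.4 RPKM.

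**Figure D1:**
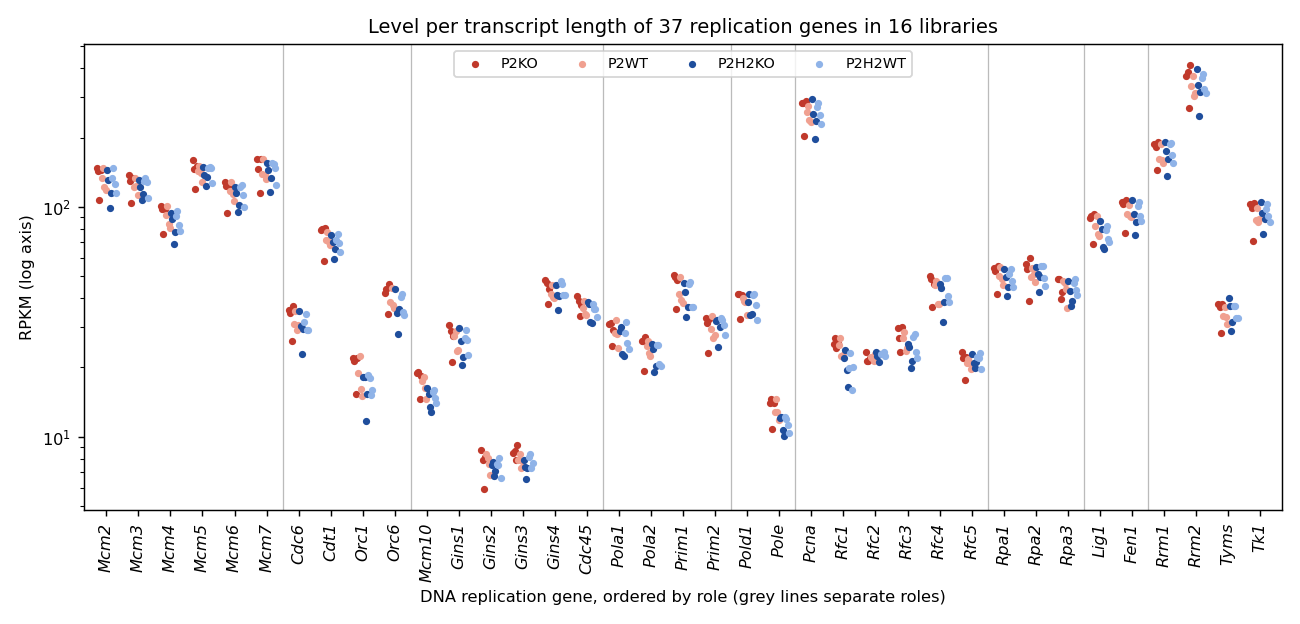
RPKM (log axis) of the 37 replication genes, ordered by role with grey lines between roles, with 1 point per library coloured by group (4 libraries each of P2KO, P2WT, P2H2KO and P2H2WT). Means run from 7.52 RPKM in Gins2 to 339.9 in Rrm2, and within each line the deficient and control libraries overlap in every gene.

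The level of these genes varied between libraries within every group. Their summed level ran from 5785 CPM in P2H2KO replicate 15 to 8007 CPM in P2KO replicate 9. In P2KO the 4 libraries (replicates 1, 5, 6 and 9) stood at 7971, 7767, 5970.2 and 8007 CPM, and in P2WT (replicates 3, 4, 7 and 10) at 7171, 7886, 6833 and 6585 CPM. In P2H2KO (replicates 11, 12, 15 and 17) the sums were 7807, 7175, 5785 and 6487 CPM, and in P2H2WT (replicates 13, 14, 16 and 18) they were 7513, 7758, 6949 and 6412 CPM. Within each line the ranges of the deficient and the control libraries overlapped, and the lowest library of each line was a deficient one.

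P2KO replicate 6 was the lowest of the 8 libraries of its line in 31 of the 37 genes. Of all genes tested, 24.1% were lowest there. P2H2KO replicate 15 was the lowest of its line in 28 of the 37 genes, against 21.9% of all genes. The median gene lay 0.24 log2 units below its own mean over 16 libraries in P2KO replicate 6 and 0.26 units below it in P2H2KO replicate 15, and 35 and 37 of the 37 genes were below their mean in these libraries. In P2KO replicate 1, by contrast, 0 genes were below their mean, with a median of 0.17 log2 units.

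**Figure D2:**
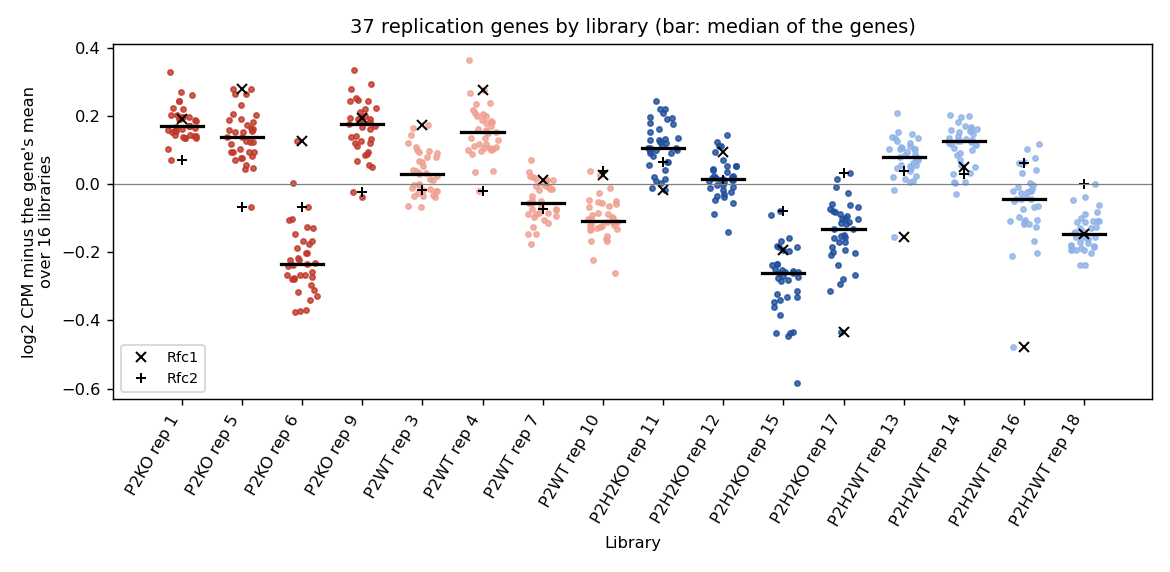
Difference of log2 CPM from each gene's mean over 16 libraries, with 1 coloured point per replication gene and library, a black bar at the median of the 37 genes, and Rfc1 (cross) and Rfc2 (plus) marked again in black. The points move up and down together, with medians from -0.26 in P2H2KO replicate 15 to 0.17 in P2KO replicate 9, while Rfc2 stays near 0 in most libraries.

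Because the group means could add to this, they were removed and Pearson correlations of log2 CPM were computed across the 16 libraries as a description. The points of each correlation share their library and its depth scaling. The median r over the 666 pairs of the 37 genes was 0.89, against -0.0023 over all pairs of genes tested and 0.013 between these genes and all others. Taken alone, the P2 line gave 0.92 and the P2H2 line gave 0.88 (8 libraries each). Without P2KO replicate 6 and P2H2KO replicate 15 the median over the other 14 libraries was 0.81. Mcm2 had the highest median r with the other genes of the set, 0.94, and the pair Mcm2 and Mcm4 reached 0.99. The E2F-type match did not set genes apart in this respect, with a median of 0.89 in the 12 genes with a match, 0.91 in the 18 without and 0.90 in the 7 without a window.

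Rfc2 and Rfc1 had the lowest values. Their median r with the other genes was 0.48 and 0.54, whereas the other 35 genes lay at 0.78 or more. Rfc2 encodes a small subunit of the clamp loader and varied least of the 37 genes, 1.11-fold between the lowest and the highest library. It stood at 117, 107, 107 and 109.9 CPM in P2KO, at 110.3, 110.1, 106 and 115 CPM in P2WT. The P2H2KO libraries stood at 117, 113, 106 and 114 CPM and the P2H2WT libraries at 115, 114, 116 and 112 CPM. The groups overlapped in both lines. P2H2KO replicate 15 was the lowest library in Rfc2 too, at 106 CPM against 112 CPM or more in the other 7 libraries of its line, whereas P2KO replicate 6 lay within the range of its line. Rfc1 encodes the large subunit and stood at 122, 129, 116 and 122 CPM in P2KO, at 120.2, 129, 107 and 109 CPM in P2WT. The P2H2KO libraries stood at 105, 114, 93.3 and 79.0 CPM and the P2H2WT libraries at 95.9, 110.4, 76.6 and 96.3 CPM. In 6 of the 8 libraries of the P2H2 line it was below all libraries of the P2 line, and its low point was P2H2WT replicate 16, not the libraries lowest in the other genes. The r between Rfc1 and Rfc2 was -0.054, the lowest of all pairs.

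Orc1 varied most, 1.93-fold, from 35.2 CPM in P2H2KO replicate 15 to 67.9 CPM in P2WT replicate 4. It stood at 66.2, 64.0, 46.3 and 66.6 CPM in P2KO, at 56.9, 67.9, 48.8 and 45.2 CPM in P2WT. The P2H2KO libraries stood at 54.9, 54.7, 35.2 and 46.4 CPM and the P2H2WT libraries at 55.8, 54.0, 45.6 and 48.2 CPM. The groups overlapped in both lines. Rrm2 stood at 812, 843, 588 and 906 CPM in P2KO and at 737, 811, 668 and 684 CPM in P2WT. Its P2H2KO libraries had 875, 744, 546 and 689.6 CPM and its P2H2WT libraries 794, 832, 714 and 684 CPM, again with overlap in both lines. It varied 1.66-fold, from 546 CPM in P2H2KO replicate 15 to 906 CPM in P2KO replicate 9, and Cdc6 varied 1.604-fold between 109.9 and 176 CPM in the same libraries.

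**Figure D3:**
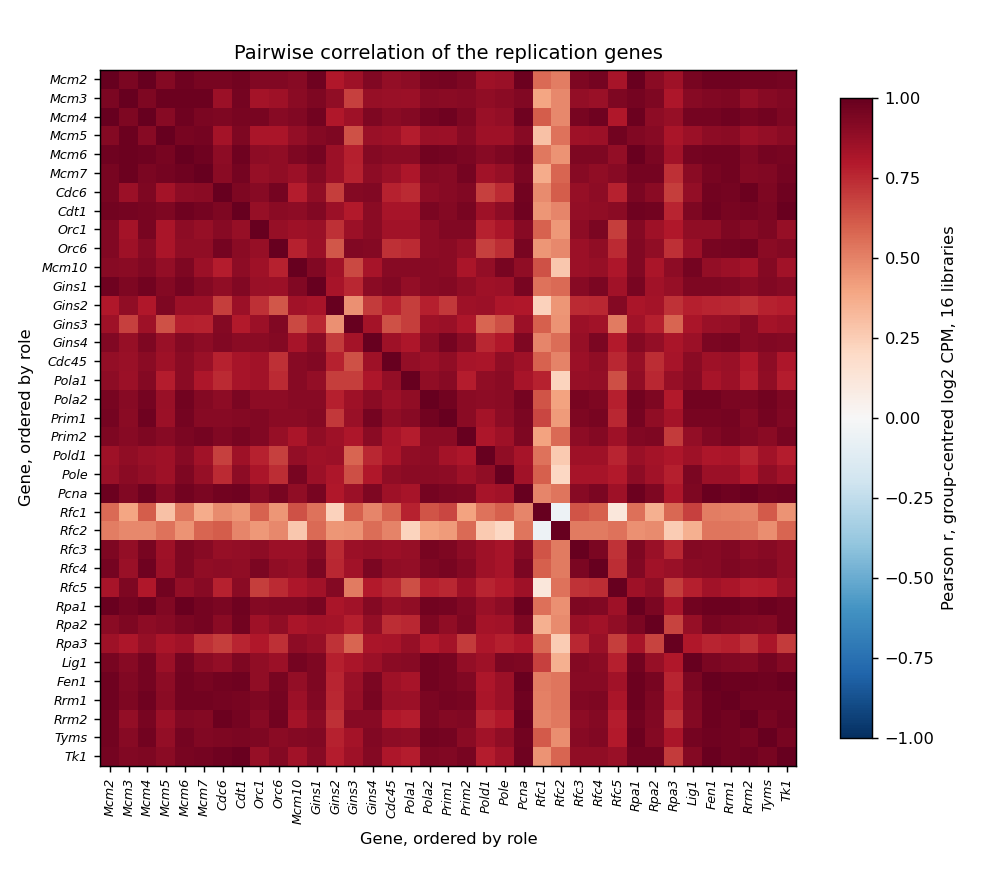
Pearson r of group-centred log2 CPM over 16 libraries for each pair of the 37 replication genes, ordered by role, on a colour scale from -1 to 1. The median over pairs is 0.89, and the rows of Rfc1 and Rfc2 stand out as paler, with medians of 0.54 and 0.48.

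Other genes of cell division varied with the 37. The median r between them and 22 genes of mitosis was 0.87, and with 40 other replication genes it was 0.81. Among these 40, chosen here after their values were seen, Pole3 (0.94) and Tipin (0.93) had median r values with the 37 near the top of the list. Pold4, a small subunit of polymerase delta, was at -0.69, Dna2 at -0.30 and Rrm2b, a ribonucleotide reductase subunit that p53 induces, at 0.02. The median with 25 regulators of the G1 to S transition was lower, 0.58, and these genes did not move one way. E2f1 and Rb1 stood at 0.90 and Ccne1 at 0.87, whereas Rbl2, which encodes the p130 repressor of E2F target genes, stood at -0.85, the cyclin Ccnd1 at -0.59 and the cell cycle inhibitor Cdkn1a at -0.52.

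Markers of cell types also varied with the replication genes. The median r with 15 erythroid markers was 0.90 (0.82 without P2KO replicate 6 and P2H2KO replicate 15). With 12 mature neutrophil markers it was -0.71, and with 10 late granule genes -0.74. Over the 16 libraries the other cell lists had median r values nearer to 0, and several differed between the lines. The median r was 0.10 with 9 early granule genes (0.33 in the P2 line and -0.17 in the P2H2 line) and 0.497 with 12 B cell markers (0.20 and 0.75). It was 0.41 with T and NK cell markers, -0.29 with monocyte and macrophage markers (0.099 in the P2 line and -0.59 in the P2H2 line) and -0.24 with stem and progenitor markers. It was 0.063 with megakaryocyte markers (-0.23 and 0.68) and 0.086 with eosinophil, basophil and mast cell markers (-0.39 and 0.41). These differences between the lines were not tested. The erythroid markers were far from absent in these sorted cells. Their summed level ran from 27814 CPM in P2H2KO replicate 15 to 56491 CPM in P2H2WT replicate 14, and none of the 15 was at 0 in any library. The globin gene Hbb-bs had a median of 13174 CPM, the red cell membrane gene Slc4a1 had 6601 CPM, and the erythroid factor Klf1 had 326 CPM. For comparison, the neutrophil genes S100a9 and Ltf had medians of 11890 and 7892 CPM, and Mpo, of the early granules, had 1849.9 CPM. B cell markers summed to between 260.4 and 882 CPM.

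P2KO replicate 6 and P2H2KO replicate 15, the lowest in the replication genes, were also the lowest in erythroid markers, at 28284 and 27814 CPM, against 34714 CPM or more in the other 14 libraries. Their mature neutrophil sums were 33594 and 30857 CPM, in a range of 14277 to 38699 CPM over all libraries. In bulk samples such as these, fewer cells of a type and less RNA per cell cannot be told apart. Which cells the transcripts of the replication genes came from was not tested. Fold changes with the erythroid level as a covariate are given further below.

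**Figure D4:**
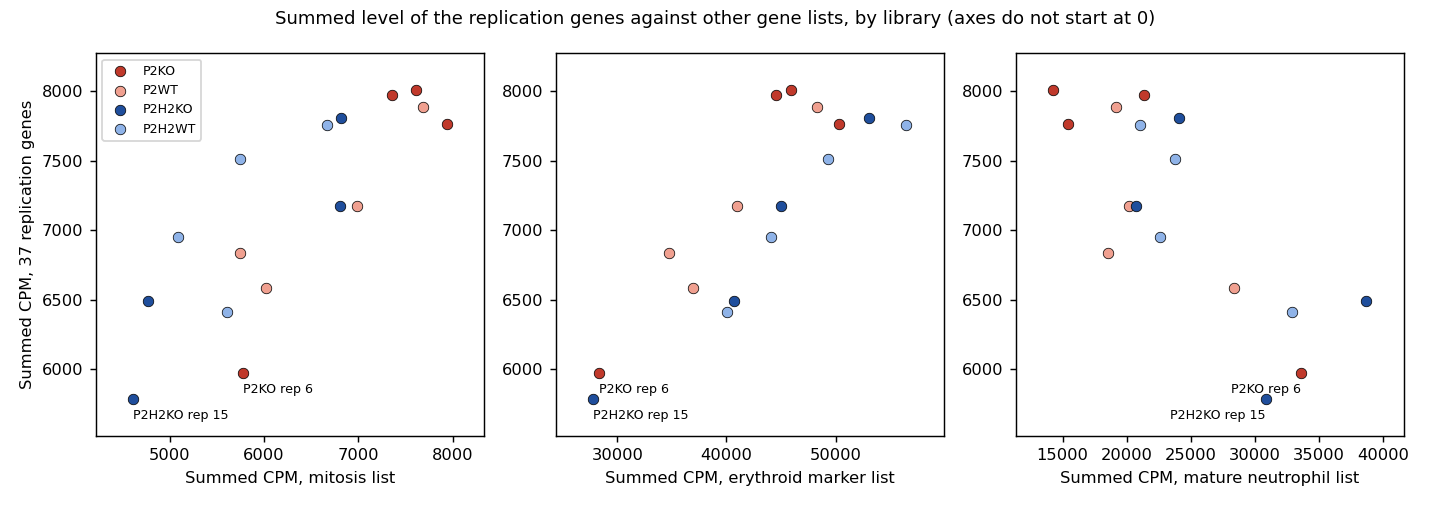
Summed CPM of the 37 replication genes against that of the mitosis, erythroid and mature neutrophil lists, with 1 point per library coloured by group and axes that do not start at 0. Libraries high in mitosis genes and erythroid markers are high in replication genes, those high in mature neutrophil markers are low, and P2KO replicate 6 (5970.2 CPM) and P2H2KO replicate 15 (5785 CPM) are at the bottom.

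The comparison of P2KO with P2WT addresses what the labelled loss of PHD2 does to these genes. No gene of the 37 passed the threshold (edgeR quasi-likelihood test, adjusted p under 0.05), where 6 of 13734 genes tested did (0.0437%). At an unadjusted p under 0.05 there were also 0, against 3.49% of all genes tested, and DESeq2 called 0 of the 37 as well. All 37 fold changes were positive but small. Their median was 0.069 on the log2 scale, with a range from 0.0031 in Gins2 to 0.16 in Orc1, against a median of 0.02 and 57.8% positive values over all genes. The genes vary together, so 37 positive signs are not 37 independent observations. In 0 of the 37 genes were the P2KO libraries apart from the P2WT libraries, as they were in 2.25% of genes tested.

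Gins3 had the smallest p of the set. It encodes a subunit of the helicase activator GINS and stood at 22.9, 23.5, 21.4 and 24.8 CPM in P2KO and at 21.3, 22.8, 19.8 and 21.1 CPM in P2WT. P2KO replicates 1, 5 and 9 lay above all P2WT libraries, and replicate 6 lay among them. The log2 fold change was 0.13 (SE 0.071, edgeR p 0.098, adjusted p 0.99999). Cdc45 stood at 88, 83.4, 71.4 and 79.8 CPM in P2KO and at 77.5, 83.4, 72.9 and 72.2 CPM in P2WT, a log2 fold change of 0.087 (SE 0.077, edgeR p 0.289). Prim1, the catalytic primase subunit, stood at 80.4, 78.4, 57.2 and 76.1 CPM in P2KO and at 66.1, 78.5, 62.8 and 60.9 CPM in P2WT, a log2 fold change of 0.13 (SE 0.12, edgeR p 0.293). In both genes P2KO replicate 6 was the lowest of the 8 libraries, and the adjusted p was 0.99999.

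The core of the set gave the same picture. Mcm2 stood at 497, 482, 360.1 and 489 CPM in P2KO and at 449.8, 498, 412 and 397 CPM in P2WT. P2KO replicate 6 was the lowest of the 8 libraries and the other 3 P2KO libraries lay within the upper part of the P2WT range. Pcna stood at 428, 431, 309 and 439 CPM in P2KO and at 394, 416, 363 and 354 CPM in P2WT. Its 3 other P2KO libraries lay above all P2WT libraries, while replicate 6 lay below them. The log2 fold changes of Mcm2 to Mcm7 were 0.067, 0.048, 0.064, 0.045, 0.028 and 0.045, with SE between 0.099 and 0.12, and that of Pcna was 0.085 (SE 0.12), all with an edgeR adjusted p of 0.99999. Each of the 37 genes had a 95% confidence interval that included 0. The lowest bound was -0.26, in Gins2, and the highest 0.50, in Orc1, while narrower intervals were found in Rfc2 (-0.13 to 0.14) and Gins3 (-0.030 to 0.29).

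The size of the difference depended on P2KO replicate 6. Without it the median log2 fold change was 0.17, and 14 of the 37 genes had an unadjusted p under 0.05 in edgeR. None of the 37 passed the adjusted threshold, as 6 of 13936 genes tested did (0.043%). The share of all genes under the unadjusted threshold was not counted in this fit. The 14 genes are therefore not shown to be a trait of the replication genes. All 15 erythroid markers were positive in this comparison too, with a median of 0.13 and 0 called, as were all 6 megakaryocyte markers (0.52). The 12 monocyte and macrophage markers were all negative (median -0.26, 0 called), as were 11 of 12 T and NK cell markers (-0.17). Of the 12 mature neutrophil markers 5 were positive and 7 negative. Apart from the fit with the erythroid level as a covariate, given further below, the part of these markers in the result was not tested.

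In P2H2KO against P2H2WT, which addresses the labelled loss of PHD2 and HIF2 together, again none of the 37 genes was called by edgeR, where 10 of 13435 genes tested were (0.0744%). At an unadjusted p under 0.05 there were 0, against 2.63% of all genes, and DESeq2 called 0. Here 36 of the 37 fold changes were negative, and Rfc1 was the exception at 0.048. The median was -0.071, against 0.0011 over all genes, and the lowest value was -0.15 in Rfc4. The groups were apart in 0 of the 37 genes, as they were in 1.71% of genes tested.

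The smallest p belonged to Rfc3, a small subunit of the clamp loader. It stood at 33.3, 32.3, 26.3 and 28.1 CPM in P2H2KO and at 35.7, 36.6, 30.7 and 29.1 CPM in P2H2WT. P2H2KO replicates 15 and 17 were the lowest, and the other P2H2KO libraries lay within the control range. Its log2 fold change was -0.14 (SE 0.11, edgeR p 0.236, adjusted p 0.9999). Gins3 stood at 21.5, 20.1, 17.8 and 19.8 CPM in P2H2KO and at 22, 22.7, 19.7 and 20.7 CPM in P2H2WT, a log2 fold change of -0.10 (SE 0.084, edgeR p 0.241). Gins4, the most abundant GINS transcript, stood at 61.6, 55.7, 48 and 55.1 CPM in P2H2KO and at 63.8, 62.4, 55.7 and 55.6 CPM in P2H2WT, a log2 fold change of -0.11 (SE 0.091, edgeR p 0.263). P2H2KO replicate 15 was the lowest library in both, the groups overlapped, and the adjusted p was 0.9999.

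Mcm2 stood at 485, 439, 332 and 385 CPM in P2H2KO and at 449.9, 497, 426 and 388 CPM in P2H2WT. Pcna stood at 448, 386, 299.7 and 358 CPM in P2H2KO and at 413, 431, 379 and 349 CPM in P2H2WT. In both genes P2H2KO replicate 15 was lowest, and P2H2KO replicate 11 was at or near the top. The log2 fold changes of Mcm2 to Mcm7 were -0.0999, -0.083, -0.084, -0.071, -0.0797 and -0.084, with SE between 0.093 and 0.13, and that of Pcna was -0.074 (SE 0.13), all with an edgeR adjusted p of 0.9999. Without P2H2KO replicate 15 the median over the 37 genes was 0.005 and 21 of them were positive. With the m or f suffix of the library titles as a covariate it was -0.028, with 31 negative values. Of the 15 erythroid markers 14 were negative, with a median of -0.15. The 12 B cell markers were all negative with a median of -0.34, as were 7 of 12 monocyte and macrophage markers (median -0.15). The 12 mature neutrophil markers were all positive with a median of 0.18. So were the 9 early and 10 late granule genes (0.18 and 0.17), and 5 of 6 megakaryocyte markers (0.39). None of these markers was called.

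**Figure D5:**
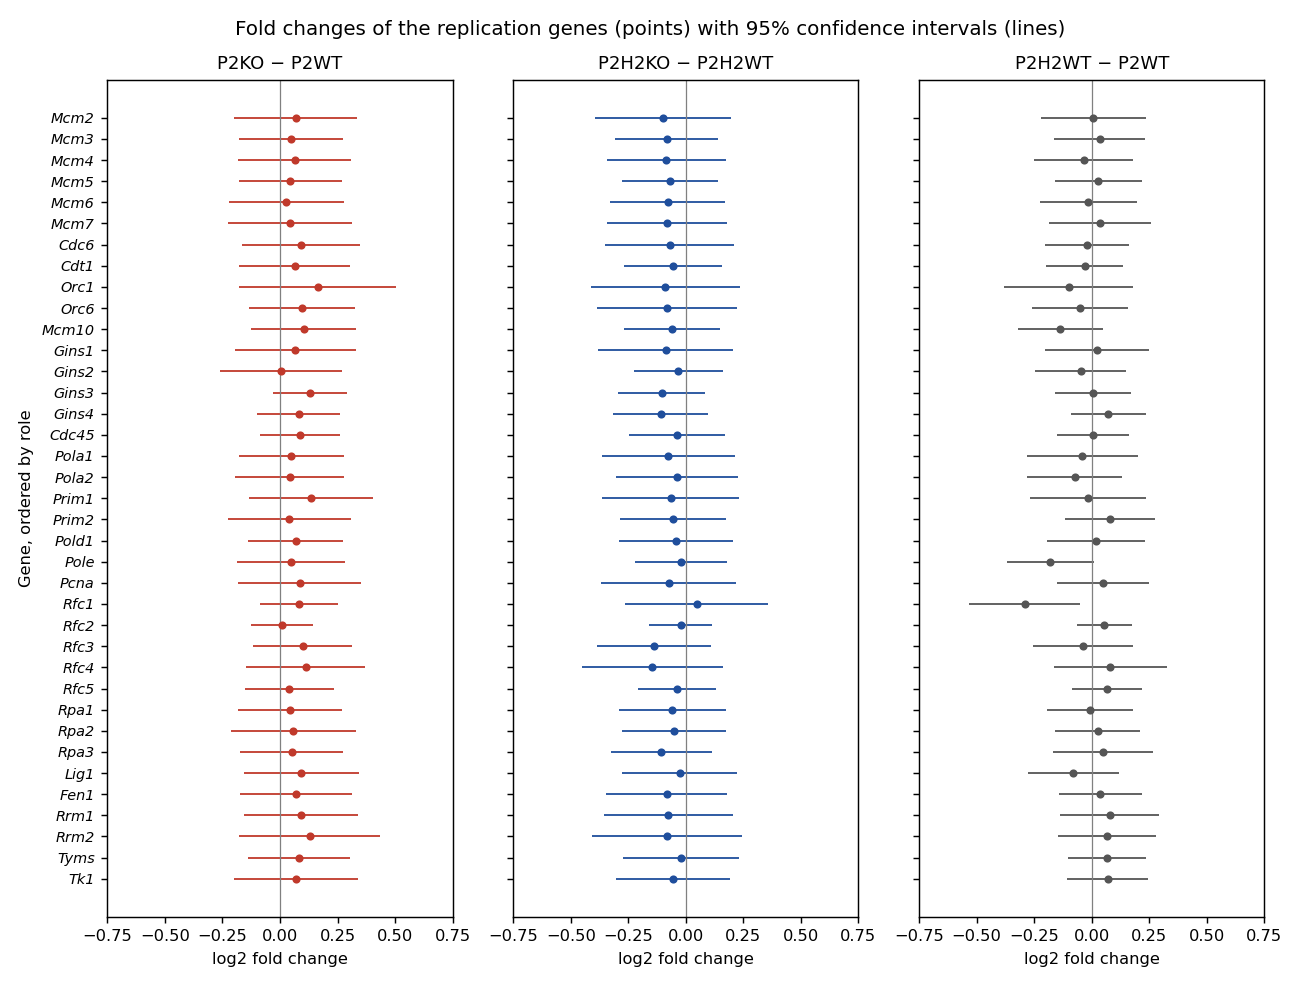
Log2 fold changes of the 37 replication genes (points) with 95% confidence intervals (lines) in P2KO against P2WT, P2H2KO against P2H2WT and P2H2WT against P2WT, genes ordered by role. In the left panel all points lie right of 0, in the middle panel all but Rfc1 lie left of 0, and the interval of Rfc1 in the right panel, -0.53 to -0.051, is the only one that leaves out 0.

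The opposite signs of the lines were tested directly as a difference of their effects over 16 libraries. The difference was positive in all 37 genes, with a median of 0.12 (0.0012 over all genes), but 0 passed the threshold in edgeR or in DESeq2, where 0 of all 14080 genes tested did (0%). At an unadjusted p under 0.05 there was 1 of the 37, Gins3, and 1.51% of all genes. Gins3 differed by 0.23 (SE 0.10, edgeR p 0.0443, adjusted p 0.999). Rfc3 differed by 0.23 (SE 0.15, edgeR p 0.144) and Gins4 by 0.18 (SE 0.12, edgeR p 0.164). For Mcm2 to Mcm7 and Pcna the differences lay between 0.0975 and 0.16, with edgeR p values from 0.402 to 0.546. The erythroid markers differed in the same direction, with 15 of 15 positive and a median of 0.24. So did the 12 B cell markers, all positive with a median of 0.39. The 12 mature neutrophil markers and 10 late granule genes were all negative (medians -0.22 and -0.19). Leaving out P2KO replicate 6 gave a median of 0.21 over the 37 genes, and leaving out P2H2KO replicate 15 gave 0.061.

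Averaged over the lines, deficient libraries differed little from controls. The median log2 fold change was -0.0031, with 16 positive and 21 negative values, 0 genes called in edgeR or in DESeq2 and 0 at an unadjusted p under 0.05, against 24 of 14080 genes called (0.17%), 20 of them higher (0.142%), and 3.72% at the unadjusted threshold. The values lay between -0.034 in Rpa3 and 0.059 in Rfc1, with a median SE of 0.081. Rfc1 (SE 0.081, edgeR p 0.477), Rpa3 (SE 0.071, edgeR p 0.643) and Mcm6 (-0.031, SE 0.079, edgeR p 0.697) had the smallest p values. The 95% intervals of the 37 genes reached from -0.22 to 0.27.

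The wild-type groups of the lines were compared as a gauge of what differs without a labelled deletion. Line, title number and count table cannot be told apart here. In this comparison 166 of 13593 genes were called (1.22%), of which 148 were lower in P2H2WT (1.09%), and 0 of the 37 were. The 37 genes had a median of 0.0074 for P2H2WT minus P2WT, with 21 positive and 16 negative values. The unadjusted threshold was passed by 1 gene, Rfc1, and by 11.4% of all genes tested. The groups were apart in 0 of the 37 genes and in 7.81% of all.

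Rfc1 (chromosome 5, 65261850 to 65335670, minus strand, GRCm38) was lower in P2H2WT by a log2 fold change of -0.29 (SE 0.11, edgeR p 0.0222, adjusted p 0.323). As given above, 3 of the 4 P2H2WT libraries lay below all P2WT libraries, and P2H2WT replicate 14 overlapped them. With the m or f suffix of the library titles as a covariate the value was -0.37 (SE 0.074) and passed the threshold (edgeR adjusted p 0.0432). The libraries with suffix f, P2WT replicates 7 and 10 and P2H2WT replicate 16, were the lowest of their groups in Rfc1. Pole stood at 94.8, 108.7, 94.9 and 87.5 CPM in P2WT and at 90.8, 88.5, 83.3 and 76.7 CPM in P2H2WT, a log2 fold change of -0.18 (SE 0.085, edgeR p 0.0586, adjusted p 0.461). P2WT replicate 10 lay within the P2H2WT range. Mcm10, which helps to activate the helicase, stood at 86.8, 90.2, 80.5 and 72.1 CPM in P2WT and at 77.6, 78.9, 73.1 and 69.4 CPM in P2H2WT, a log2 fold change of -0.14 (SE 0.082, edgeR p 0.129, adjusted p 0.586). The groups overlapped through P2WT replicate 10. Mcm2 to Mcm7 lay between -0.036 and 0.036, with SE between 0.084 and 0.10 and edgeR adjusted p values from 0.924 to 0.991, and Pcna was at 0.047 (SE 0.0898, adjusted p 0.884).

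The other lists of cell division also held 0 called genes. None of 40 other replication genes, 25 regulators of the G1 to S transition or 22 genes of mitosis was called by edgeR in any of the 5 comparisons, and neither was any marker of the 10 cell type and cell state lists. In P2KO against P2WT 35 of the 40 other replication genes were positive (median 0.070) and 21 of the 22 mitosis genes (median 0.094). Of the 25 G1 to S regulators 20 were positive (median 0.059). In P2H2KO against P2H2WT 34 of the 40 were negative (median -0.059) and 19 of the 22 (median -0.030). The 25 regulators did not follow there, with 15 positive and 10 negative (median 0.0045). At an unadjusted p under 0.05 these 3 lists held 0, 1 and 0 genes in the P2 line and 0 each in the P2H2 line. Between the wild-type groups each list held 3, where 11.4% of all genes tested passed.

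Since the replication genes varied with erythroid markers, the log2 summed CPM of the 15 markers was entered as a covariate, an alternative chosen after seeing the data. The standard errors of the 37 genes were then smaller. In P2KO against P2WT the median SE was 0.053 in place of 0.106, and the median log2 fold change was 0.036 in place of 0.069. Of the 37 genes 35 were positive and 0 were called by edgeR, where 11 of 13734 genes tested were (0.0801%). In P2H2KO against P2H2WT the median SE was 0.062 in place of 0.11, and the median log2 fold change turned from -0.071 to 0.034. There 30 genes were positive in place of 1, and 0 were called, where 14 of 13435 genes tested were (0.104%). For the difference between the lines the median was -0.0019 with 17 positive values, in place of 0.12 with 37. None of the 37 was called there, as were 0 of 14080 genes tested. Between the wild-type groups the median was -0.11 with 2 positive values, and 3 of the 37 genes were called where 828 of all genes were (6.09%). These were Rfc1 at -0.44 (SE 0.091, edgeR adjusted p 0.0331), Pole at -0.30 (SE 0.068, adjusted p 0.0388) and Lig1 at -0.22 (SE 0.053, adjusted p 0.0447). The mean erythroid level was 40236 ± 5973 CPM (SD, n = 4) in P2WT and 47490 ± 7098 CPM in P2H2WT. The ranges overlapped (34714 to 48320.5 and 40053.7 to 56491.5 CPM), and this difference was not tested. With unequal means the covariate and the line are not fully separate in this comparison. In P2H2KO the mean was 41660 ± 10562 CPM, also below P2H2WT with overlapping ranges, so the covariate and the labelled genotype are not fully separate in that line either. In P2KO it was 42255 ± 9633 CPM.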

How the data were processed

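Counts of RNA sequencing reads per gene were used for 16 libraries. Per the submitters' processing notes, HTSeq and the build mm10 were used. The aligner, the annotation release and the strand setting are not given in the sources used here. Per the file headers, the authors deposited raw counts in 2 tables of 8 libraries, 1 for each line, without normalization. Groups and replicate numbers came from the library titles. Symbols, coordinates and lengths came from GENCODE M21 (GRCm38). They matched 49326 of 49585 identifiers, and the other 259, which held 0.00714% of counts, were kept in the fits.

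Low counts were removed by filterByExpr in edgeR 4.0.16, and libraries were scaled with TMM and tested with the quasi-likelihood test (robust fit) in R 4.3.3, with Benjamini-Hochberg adjustment over all genes tested and a threshold of 0.05. Each line was fitted alone, as were the wild-type groups, and all 16 libraries entered the other fits. CPM used TMM-scaled library sizes from all 16 libraries, and log2 CPM a prior count of 2. Tables were made with pandas 2.3.3 and numpy 2.4.6. The procedure was tested on simulated data. The alternatives were RLE size factors, upper-quartile factors, DESeq2 1.42.0, leaving the filter out, a minimum of 10 counts per library, the m or f title suffix as a covariate, all 16 libraries in the fit of 2 groups, and leaving out each library. An erythroid covariate was added after seeing the data.

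The 37 genes and all lists were chosen with earlier results of these data known. Full statistics are given for the 3 genes of smallest p in each comparison, for called genes, and for Mcm2 to Mcm7 and Pcna. Other genes named were chosen after their values were seen. No symbol matched Azu2 and Ahsp of the marker lists.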

Additional observations from a re-analysis of the deposited data

Results flagged for a closer look

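In 16 of 152 sets of 4 libraries (37 genes and their sum, in 4 groups) 1 library lay far from the other 3 by Dixon's test at the 95% level, which sets its gap to the next library against the range. About 5% of such sets are expected to do so by chance, but the genes vary together and are not independent. Of the 16 cases, 15 were P2KO replicate 6, and it was the low library in each of them. There the summed level was 5970.2 CPM. Mcm2 stood at 360.1 CPM, Mcm4 at 273 CPM, Mcm6 at 411 CPM, Mcm10 at 71.9 CPM, Cdt1 at 128 CPM and Orc1 at 46.3 CPM. Pcna was at 309 CPM, Pola2 at 55.5 CPM, Prim2 at 45.6 CPM and Pold1 at 113 CPM. Lig1 was at 241 CPM, Fen1 at 186 CPM, Tyms at 89.7 CPM and Tk1 at 102 CPM. The remaining case was Mcm5 in P2H2WT replicate 18, at 440.0 CPM, below 511 to 515 CPM in the other 3 libraries of that group.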

How the results depend on the processing

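No paired analysis was possible because the groups share no replicate number. The number of genes called among the 37 stayed at 0 in the 5 comparisons under every alternative run, except between the wild-type groups. There it was 1 with the title suffix, where 1.78% of all genes were called. With the erythroid covariate it was 3, where 6.09% of all genes were called. Leaving out each library gave 0 to 0 called genes in each comparison. The median log2 fold change then ranged from 0.032 to 0.1665 in the P2 line, from -0.1355 to 0.005 in the P2H2 line, from 0.0607 to 0.2147 for the difference, from -0.0379 to 0.0395 over both lines and from -0.0291 to 0.0707 between the wild-type groups. The single gene of the difference with an unadjusted p under 0.05 was lost with upper-quartile factors, without the filter, with at least 10 counts and with the title suffix.

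Counts over all genes tested moved by more than 1.5 times in some settings. DESeq2 called 23 genes in place of 6 in the P2 line, 42 in place of 10 in the P2H2 line, 65 in place of 24 over both lines and 419 in place of 166 between the wild-type groups. The erythroid covariate gave 11 in the P2 line, 51 over both lines and 828 between the wild-type groups, and the fit of all 16 libraries gave 10 in the P2 line and 32 between the wild-type groups. A minimum of 10 counts gave 87 between the wild-type groups, and leaving out single libraries gave 76 to 167 there. Over both lines, single libraries left 15 to 30, in the P2 line 4 to 6 and in the P2H2 line 6 to 9.

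Of the 37 genes, 35 to 37 stayed positive in the P2 line and 31 to 36 negative in the P2H2 line under the planned settings that kept all libraries. Values near 0 changed sign, and the cause was not tested. With the erythroid covariate 2 of the 37 genes were negative in the P2 line, 30 positive in the P2H2 line, 20 negative for the difference, 35 positive over both lines and 35 negative between the wild-type groups. Among Mcm2 to Mcm7, Pcna and the 3 genes of smallest p in a comparison, those that changed sign were Mcm6 (-0.0033) in the P2 line, and Mcm2 (0.0264), Mcm4 (0.0241), Mcm6 (0.0157), Mcm7 (0.0175) and Pcna (0.0490) in the P2H2 line. For the difference they were Mcm6 (-0.0346), Mcm7 (-0.0196) and Pcna (-0.0111). Over both lines they were Mcm2 (0.0214), Mcm3 (0.0068), Mcm4 (0.0234), Mcm5 (0.0078), Mcm6 (0.0042) and Mcm7 (0.0127). Between the wild-type groups they were Mcm2 (-0.1607), Mcm3 (-0.0782), Mcm5 (-0.0631), Mcm7 (-0.1029) and Pcna (-0.0909). Pcna over both lines was -0.0078 without the filter and -0.0040 with at least 10 counts, and Mcm2 between the wild-type groups was -0.0264 with the title suffix.

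Leaving out single libraries changed the sign of Mcm5 (-0.0105 to 0.1246), Mcm6 (-0.0143 to 0.122) and Mcm7 (-0.0084 to 0.1469) in the P2 line and of Pcna (-0.1752 to 0.0196) in the P2H2 line. Over both lines the ranges were -0.067 to 0.0275 for Mcm2, -0.0534 to 0.0182 for Mcm3, -0.0512 to 0.027 for Mcm4, -0.0488 to 0.0209 for Mcm5, -0.0616 to 0.0151 for Mcm6, -0.0589 to 0.0256 for Mcm7 and -0.0499 to 0.0536 for Pcna. Between the wild-type groups they were -0.0554 to 0.0756 for Mcm2, -0.0053 to 0.1032 for Mcm3, -0.085 to 0.0298 for Mcm4, -0.0124 to 0.0889 for Mcm5, -0.0572 to 0.0522 for Mcm6 and -0.0003 to 0.1121 for Mcm7. Each of the 37 genes had 440 or more counts in every library, and the shares of counting error and of spread between libraries in the standard errors were not separated.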
